A study of Mus musculus with 20 samples.

Results

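Imprinted genes are expressed from the chromosome of 1 parent. The 45 genes described here are a list of autosomal imprinted genes of the mouse that fall into 19 clusters or single loci. They were listed from textbook knowledge of imprinting. Each was found once among 30233 autosomal coding and long noncoding genes of the GENCODE basic annotation on mm10 (GRCm38). They comprise 37 coding and 8 noncoding genes, of which 24 are known to be expressed from the paternal and 19 from the maternal chromosome, and for the other 2, Gnas and Inpp5f, it depends on the isoform. A gene was given all peaks that shared at least 1 bp with its body plus 10 kb on each side, a stretch called its window below. Where windows of neighbouring genes overlapped, a peak was counted for each gene, and once in totals.

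The peaks came from chromatin immunoprecipitation and sequencing (ChIP-Seq) of livers from wild-type male C57BL/6 mice, young (3 months) or old (21 months). H3K14ac, acetylated lysine 14 of histone H3, and Setdb1 were measured in 3 livers per age and Kap1 in 2 livers per age, by the labels, while the study's figure legends give the number of merged replicates differently in places. The reads of the livers of an age were merged by the authors before peaks were called, so that there is 1 list per mark and age and no spread between livers. The lists held 19350 young and 20463 old H3K14ac peaks, 50583 young and 13877 old Setdb1 peaks, and 48915 young and 22141 old Kap1 peaks. They give positions without heights, so the depth behind a peak is unknown and no difference between ages could be tested. The fall in list length from young to old for both factors therefore stands beside every count below. Whole liver holds several cell types, and a peak that is present in fewer cells cannot be told apart from a weaker one. Of 9 annotated hepatocyte marker genes, 3 had a young and 4 an old H3K14ac peak at a start site (Apoa1, Apoa2 and Apoc3 at both ages, Ttr in old liver), against 15.3% and 22.0% of all genes. In the deposited lists Alb, the albumin gene and a defining hepatocyte gene, had no H3K14ac peak in its window at either age. None of the 5 Kupffer cell, 5 endothelial or 4 lymphocyte marker genes had one at a start site, but in their windows 2 endothelial genes had one in young and 3 in old liver, as did 2 lymphocyte genes in old liver, where the hepatocyte count was 5 of 9 at each age. Among the marker genes of other cell types, Dcn (stellate cell and fibroblast) and Syt1 (neuron) had one at a start site in young liver and Sox9 (cholangiocyte) in old liver. In their windows, 2 of 4 neuron genes had one at each age, against 33.1% of all genes in young and 40.6% in old liver. No stellate cell or cholangiocyte gene besides Dcn and Sox9 had one in its window. The part of these cells in the results was not tested.

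Most imprinted clusters are governed by a control region whose DNA is methylated on 1 parental chromosome since the germ line. In mammals the zinc finger protein Zfp57 binds the hexamer TGCCGC in methylated control regions and holds Kap1 (Trim28) there, and Kap1 in turn binds the H3K9 methyltransferase Setdb1, so that the methylated chromosome keeps DNA methylation and H3K9me3. This is best known from embryonic stem cells and early embryos. H3K14ac is found at active promoters and, with H3K9me3, is a mark recognised by Setdb1. The lists do not separate the parental chromosomes, so no peak can be assigned to the expressed or the silent copy.

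Control regions were set as the stretch within 1 kb of any annotated start site for 17 genes whose start carries maternal germline methylation. For the 3 paternally methylated ones they were set upstream of the gene, at 0 to 5 kb for H19, 10 to 20 kb for Meg3 and 25 to 35 kb for Rasgrf1. Where a gene has several start sites, the methylated one was not singled out. Peaks of either factor were seen at 4 of the 20 control regions (Nnat, H19, Grb10 and Rasgrf1), all in the young lists. At the 17 start regions the young share of each factor was near that of all genes, as given below. The upstream stretches span 5000 bp for H19 and 10000 bp for Meg3 and Rasgrf1. No share of like stretches elsewhere was computed for them, so the pooled count has no background. The sequence of the Nnat peak is not reported here. Sequences are given for H19, Grb10 and Rasgrf1, where a factor peak likewise lay within a stretch set as control region. These stretches are approximations by distance, so that a place within the methylated DNA itself was not shown. All are from the plus strand of GRCm38, 5′ to 3′, and capitals mark TGCCGC or, for a match on the minus strand, GCGGCA. H19 is the Setdb1 peak at chr7:142578805-142579004, between genes and upstream of H19. Grb10 is the Kap1 peak at chr11:12028034-12028183, in an intron. Rasgrf1 2 is the second of 3 Kap1 peaks upstream of Rasgrf1, at chr9:89879751-89879900.
H19: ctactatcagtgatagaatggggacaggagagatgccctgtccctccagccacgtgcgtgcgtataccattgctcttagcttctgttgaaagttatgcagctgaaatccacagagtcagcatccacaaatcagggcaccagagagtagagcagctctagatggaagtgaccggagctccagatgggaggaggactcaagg
Grb10: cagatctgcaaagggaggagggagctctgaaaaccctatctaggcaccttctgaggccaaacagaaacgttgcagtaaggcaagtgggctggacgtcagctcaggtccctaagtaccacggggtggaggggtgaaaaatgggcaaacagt
Rasgrf1 2: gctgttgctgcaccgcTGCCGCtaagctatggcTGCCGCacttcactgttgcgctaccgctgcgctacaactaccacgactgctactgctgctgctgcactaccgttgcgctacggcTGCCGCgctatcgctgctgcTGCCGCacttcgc

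The second Rasgrf1 peak held 4 matches to the hexamer and 15 CpG in 150 bases, 17.3% of which are soft-masked as repeats. Its midpoint lay at -30082 bp from the start of Rasgrf1, which encodes a Ras exchange factor (minus signs mark positions upstream). Of all 47084 autosomal young Kap1 peaks, 4 held at least 4 matches, or 0.0085%, and 1.99% held at least 1. The same place had an H3K14ac peak in old liver, chr9:89879520-89880019, with 6 matches and 31 CpG. Of the 20120 autosomal old H3K14ac peaks, 5 held 6 or more. No Kap1 peak of old liver and no Setdb1 peak of either age lay in this control region. A young Setdb1 peak lay 163 bp and an old Kap1 peak 1947 bp beyond its borders, which were set by distance only. The Kap1 and H3K14ac peaks with many matches were singled out after their sequence was seen. The flanking Kap1 peaks of young liver, chr9:89876560-89876709 and chr9:89883187-89883336, held no match and had 1 and 3 CpG. None of the 3 had a further copy on a placed chromosome at 95% identity over 90% of its length. For comparison, the first of them reads as follows.
Rasgrf1 1: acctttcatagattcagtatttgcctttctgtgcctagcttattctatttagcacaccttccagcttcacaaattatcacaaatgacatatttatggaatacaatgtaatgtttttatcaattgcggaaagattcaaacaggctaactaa

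At Nnat, which encodes neuronatin and lies within an intron of Blcap, the midpoint of the young Setdb1 peak was 185 bp after a start site. The nearest Kap1 peak of young liver was 964796 bp from the Nnat starts, and that of old liver 18226 bp. The H19 and Grb10 peaks held no match. The H19 peak, centred at -762 bp from the start of the noncoding RNA gene, had 4 CpG, and the midpoint of the Grb10 peak was at -138 bp from a start site of this growth factor receptor adaptor gene, with 3 CpG. Neither overlapped a peak of another list.

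The remaining control regions were devoid of factor peaks. Kap1 was within 1 kb of a start site at 1 of the 17 maternally methylated genes in young liver and at 0 in old liver, and Setdb1 at 1 in young and 0 in old liver. The median distance from these starts to the nearest Kap1 peak was 39021 bp for the young and 184131 bp for the old list, and to the nearest Setdb1 peak 16612 bp and 88385 bp. Counted from any annotated start, the closest misses in young liver were at Snrpn, Peg3 and Airn. Snrpn had a Kap1 peak 1157 bp from a start, Peg3 a Setdb1 peak at 1235 bp, and Airn a Setdb1 peak at 1546 bp. The Snrpn start was the 5′ end of the gene, with 4.0 CpG per kb and no match. The Airn peak lay by another start, 76.3 kb from the 5′ end. Whether either start is the methylated one was not determined. Meg3 had no peak of any list in its control region or its window. Within 1 kb of any start, 15 of the 17 genes held at least 1 match to the hexamer (88.2%), against 75.6% of the 45 imprinted genes and 41.7% of all genes, genes with more starts having more sequence searched. Within 1 kb of the 5′ end alone, these shares were 58.8%, 60.0% and 38.6%, and the median CpG density was 39.0 per kb for the 17 genes against 21.5 per kb for all genes. Mest held 13 and Snrpn 10 matches within 1 kb of their starts, without a factor peak. A match is a description of the letters and no evidence of binding.

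**Figure D1:**
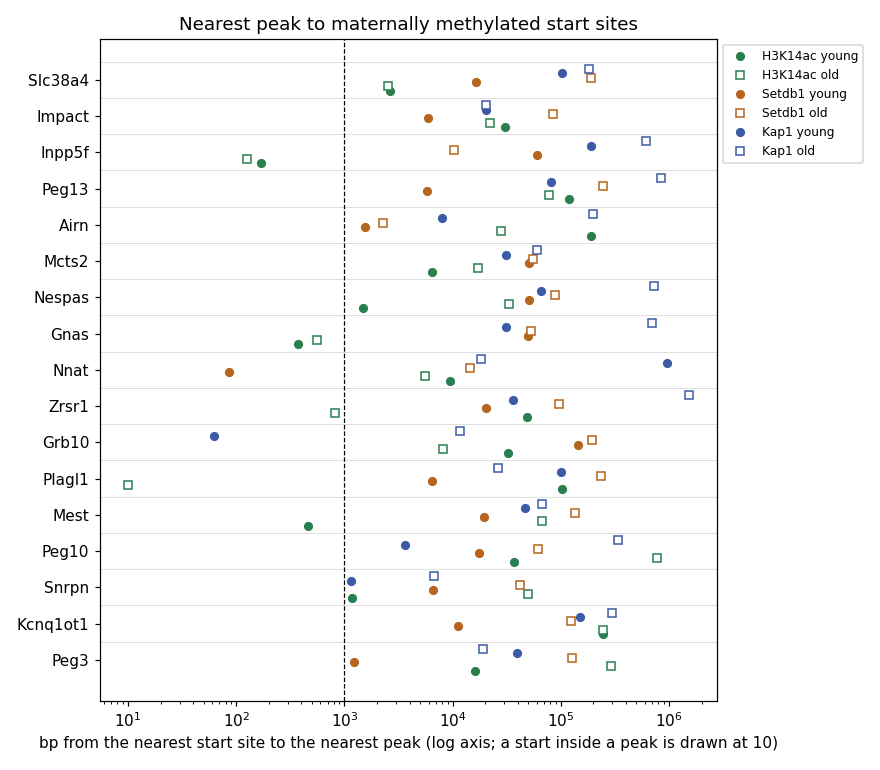
Distance in bp on a log axis from the start sites of the 17 genes with a maternally methylated start to the nearest peak of each list (filled circles young, open squares old, dashed line at 1 kb). Left of the line lie 1 Kap1, 1 Setdb1 and 7 H3K14ac points, and Plagl1 in old liver, drawn at 10, has a start site inside its H3K14ac peak.

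H3K14ac lay within 1 kb of a start of 3 of the 17 genes in young liver (Mest, Gnas and Inpp5f, 17.6%, against 15.3% of all genes) and of 4 in old liver (Plagl1, Zrsr1, Gnas and Inpp5f, 23.5%, against 22.0%). For each factor, the 1 gene of 17 in young liver was 5.88%, against 4.99% of all genes for Kap1 and 4.11% for Setdb1. These shares were near those of all genes. Gnas and Inpp5f thus had it at both ages, but at different places. The young Gnas peak, chr2:174283449-174283948, was centred at -621 bp from a start and had 15 CpG, whereas the old pair, chr2:174328425-174328924 and chr2:174328948-174329447, had 44 and 51 CpG. At Inpp5f, an inositol phosphatase gene, the young peak had 18 CpG and was centred at -419 bp from a start, and the old one had 52 CpG and was centred at 376 bp. Both lay within 1 kb of the 5′ end of this gene, which has 3 starts, and the methylated one was not singled out. Plagl1, a zinc finger gene that restrains cell growth, had its old peak centred 5 bp from a start, with 50 CpG and 3 matches. At Zrsr1, a retrogene within the host gene Commd1, the old peak had 32 CpG. The young Mest peak, chr6:30732544-30733043, was centred at -712 bp from a start, in an intron of a longer transcript, and had 15 CpG. Its central 200 bases (chr6:30732694-30732893), with 1 match on the minus strand, show the kind of sequence acetylated there.
Mest: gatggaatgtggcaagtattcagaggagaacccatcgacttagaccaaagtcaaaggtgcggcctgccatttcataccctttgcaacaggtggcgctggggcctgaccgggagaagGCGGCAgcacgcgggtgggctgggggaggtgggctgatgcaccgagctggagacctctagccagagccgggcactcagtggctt

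Over all 45 genes, the share with a peak at a start site had an interval that held the share of all genes in each of the 6 lists. H3K14ac lay within 1 kb of a start of 9 imprinted genes in young liver (20%, 95% Wilson interval 10.9% to 33.8%, against 15.3% of all genes) and of 10 in old liver (22.2%, 12.5% to 36.3%, against 22.0%). Setdb1 did so at 3 genes in young liver (6.67%, 2.29% to 17.9%, against 4.11%) and at 0 in old liver (upper limit 7.87%, against 1.09%). Kap1 did so at 5 genes in young liver (11.1%, 4.84% to 23.5%, against 4.99%), where the background lay just above the lower limit, and at 1 in old liver (2.22%, 0.393% to 11.6%, against 2.09%). The intervals cover counting error only and treat the genes as independent, which neighbours in a cluster are not.

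The 5 genes with H3K14ac at a start site in both ages were Cd81, Ube3a, Gnas, H13 and Inpp5f. Those with it in young liver only were Mkrn3, Calcr, Mest and Mirg, and those with it in old liver only were Plagl1, Zrsr1, Commd1, Blcap and Igf2r. Of all genes, 9.45% had it at both ages, 5.8% in young only and 12.5% in old only, against 11.1%, 8.89% and 11.1% of the imprinted genes. Cd81, a tetraspanin at the edge of the Kcnq1 cluster, and H13, a signal peptide peptidase gene, had nearly the same peak at both ages. The Cd81 peaks shared 450 bp (chr7:143052761-143053260 young, chr7:143052711-143053210 old), and those of H13 shared 491 bp (chr2:152669452-152669951 young, chr2:152669443-152669942 old). All 4 touched an exon, with 48 to 49 CpG each. Of the starts marked in young liver only, that of Mkrn3, a paternally expressed RING finger gene, had a peak with 32 CpG centred at 290 bp, and that of Mirg, a noncoding RNA gene that hosts microRNAs, a peak with 6 CpG. Ndn, the necdin gene of the same cluster, had no H3K14ac peak in young and 4 in old liver, none within 1 kb of its start. Within the imprinted windows, H3K14ac peaks at start sites held more CpG at the median than those elsewhere. Acetylated start sites of all genes were not compared. The 9 young peaks at starts had a median of 32 CpG per peak (6 to 49) against 4 (0 to 21) in the 29 young peaks elsewhere in the windows, and the 14 old ones a median of 46 (5 to 78) against 4.5 (1 to 33) in the other 22.

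Among host genes with the start of an imprinted gene in an intron, H13 had H3K14ac at its own start at both ages. Commd1, Blcap and Igf2r had it there in old liver only, and Kcnq1 and Trappc9 at neither age. Of all genes, 9.45% had it at both ages and 12.5% in old liver only, and the hosts as a group were not tested. Commd1, which takes part in copper handling, and Blcap had an old H3K14ac peak over an exon at a start site, with 30 and 39 CpG. At Zrsr1 itself the old peak was centred 1072 bp after the start, its near edge 822 bp from it. H13 had 5 young peaks, of which 2 were also in the window of the retrogene Mcts2, but none lay within 1 kb of the Mcts2 start, and 1 old peak. At Igf2r, the maternally expressed receptor that clears insulin-like growth factor 2, the old list had a peak over an exon, 196 bp from the start at its midpoint, with 67 CpG and a GC content of 75.0%, the highest of the old H3K14ac peaks in the windows. Airn, the paternally expressed antisense RNA whose start lies in an intron of Igf2r, had no H3K14ac peak within 1 kb of its starts. Gnas and Nespas shared the young Gnas peak named above.

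Factor peaks at start sites were few. In young liver Kap1 lay at a start of Calcr, Grb10, Ddc, Dlk1 and Kcnk9, and Setdb1 at a start of H19, Nnat and Rasgrf1. The Kap1 peaks of Ddc, the gene of aromatic amino acid decarboxylase, and Dlk1, a Notch ligand homologue, were centred at -174 bp and 272 bp from a start, with 0 and 10 CpG, and that of Kcnk9, a potassium channel gene, at -899 bp, with 5 CpG. The Setdb1 peak of Rasgrf1 lay in an intron at 520 bp, with 11 CpG. With the 5′ end of the gene as the only start site, 2 genes in place of 5 had a young Kap1 peak. Calcr, which encodes the calcitonin receptor, was the sole imprinted gene with a Kap1 peak at a start site in old liver, with 2 peaks there at each age. A young and an old one of them (chr6:3763545-3763694 and chr6:3763568-3763717) shared 127 bp, with 14 and 15 CpG, and the young H3K14ac peak chr6:3763564-3764063, with 36 CpG, overlapped both. The longest run of this shared stretch outside untranslated exon, 64 bases at chr6:3763631-3763694, is shown because no other imprinted start site had Kap1 at both ages.
Calcr: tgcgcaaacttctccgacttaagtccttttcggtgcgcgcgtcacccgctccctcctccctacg

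**Figure D2:**
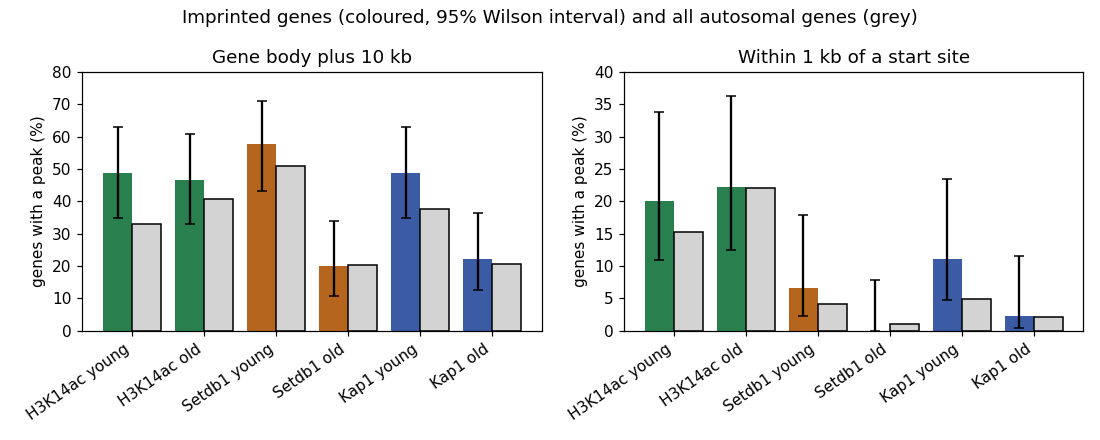
Percent of genes with a peak in the gene body plus 10 kb (left) and within 1 kb of a start site (right), for the 45 imprinted genes (coloured bars, error bars 95% Wilson intervals) and all 30233 autosomal genes (grey bars). The grey value lies within the error bar in 11 of 12 pairs, the exception being young H3K14ac in the window, where 33.1% is below the lower limit of 35%.

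Counted over the whole window, Phlda2, Ascl2 and Meg3 had no peak in any list (6.67%, against 15.6% of all genes), 19 of 45 genes had peaks in 3 or more lists (42.2%, against 33.2%), and Calcr was the single gene with peaks in all 6 lists (2.22%, against 2.32%). H3K14ac peaks fell in the windows of 22 genes in young liver (48.9%, 35% to 63.0%, against 33.1% of all genes) and 21 in old liver (46.7%, 32.9% to 60.9%, against 40.6%). Setdb1 peaks fell in 26 windows in young liver (57.8%, 43.3% to 71.0%, against 50.8%) and 9 in old liver (20%, 10.9% to 33.8%, against 20.2%). For Kap1 these were 22 windows in young liver (48.9%, 35% to 63.0%, against 37.6%) and 10 in old liver (22.2%, 12.5% to 36.3%, against 20.7%). Young H3K14ac was the single list whose background share lay below the interval. Among coding genes only, 20 of 37 imprinted genes had a young H3K14ac peak (54.1%, 38.4% to 69.0%), against 38.1% of all coding genes, again just below the interval. Long windows catch more peaks. Of the 13 genes with windows over 100 kb, 8 had a young Setdb1 peak (61.5%), against 90.5% of all 3546 genes of that length, and 10 a young Kap1 peak (76.9%), against 69.7%. For windows under 50 kb the young Setdb1 share was on the other side of the background, with 12 of 22 genes (54.5%) against 40.2%. The young H3K14ac share was above that of all genes in each length class, with 40.9% against 28.5% under 50 kb, 50% against 39.4% from 50 to 100 kb, and 61.5% against 51.5% over 100 kb. The long genes without a young Setdb1 peak were Ube3a, Grb10, Ddc, Igf2r and Inpp5f.

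**Figure D3:**
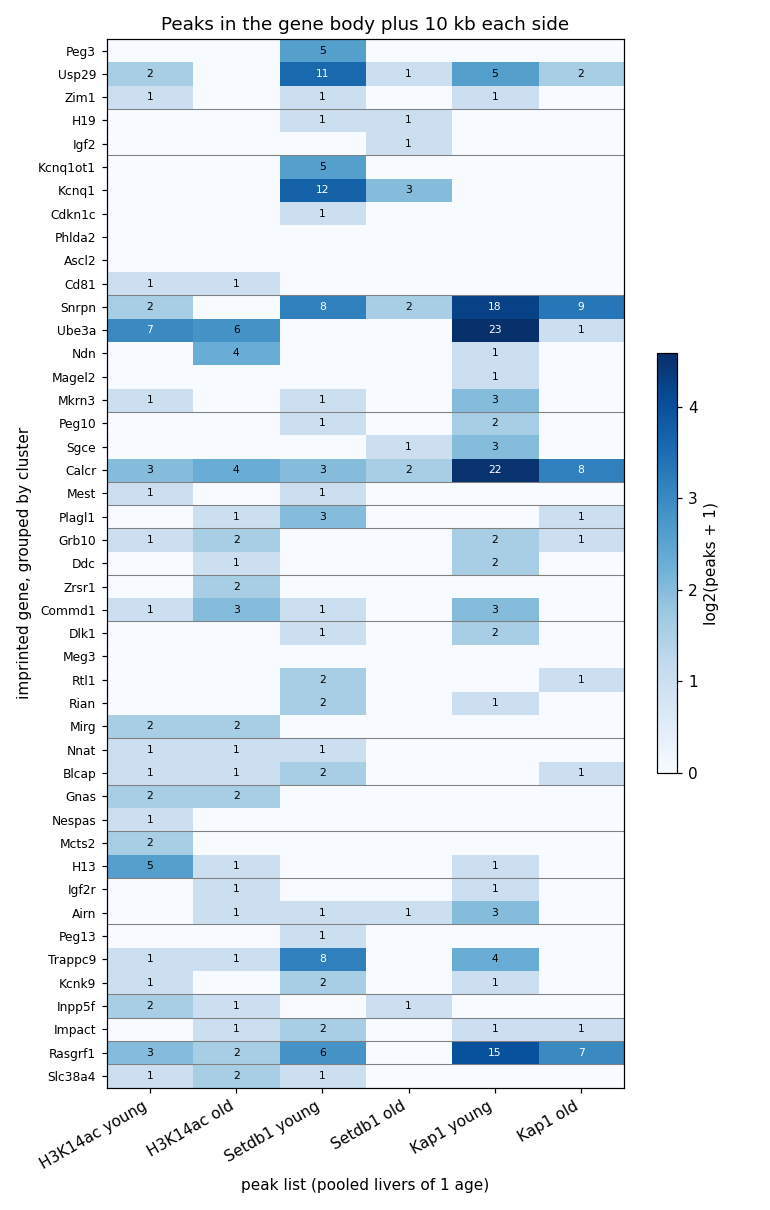
Number of peaks in the window of each of the 45 imprinted genes (rows, lines between clusters) in the 6 lists (columns), shaded by log2(peaks + 1), empty where 0. The dark Kap1 cells are Ube3a (23), Calcr (22), Snrpn (18) and Rasgrf1 (15) in young liver, and the dark Setdb1 cells are Kcnq1 (12) and Usp29 (11).

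Kap1 peaks were concentrated in a few long genes. In young liver 112 Kap1 peaks lay in the 3.37 Mb of imprinted gene windows, 33.2 per Mb against 19.1 per Mb of all autosomes, and Ube3a, Calcr, Snrpn and Rasgrf1 held 78 of them (69.6%). In old liver these genes held 25 of 32 (78.1%). Without their windows the density was 11.9 per Mb in young and 2.45 per Mb in old liver, against 19.1 and 8.69 per Mb of autosomes, so the direction against the autosomes turns with these 4 genes, which were picked for their counts. Windows with at least 10 young Kap1 peaks were found for 4 of 45 imprinted genes (8.89%) and for 2.09% of all genes. Among genes with windows over 100 kb this was 3 of 13 (23.1%) against 7.9%, Calcr being just shorter. Of those 3546 genes, 16 had a denser young Kap1 window than Ube3a (22.4 per 100 kb, against a median of 0.797), 17 than Calcr, 58 than Rasgrf1 and 63 than Snrpn. The surroundings were dense as well. In the 500 kb on each side of the window, young Kap1 peaks numbered 131 for Ube3a, 86 for Calcr and 72 each for Snrpn and Rasgrf1, per Mb in each case.

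**Figure D4:**
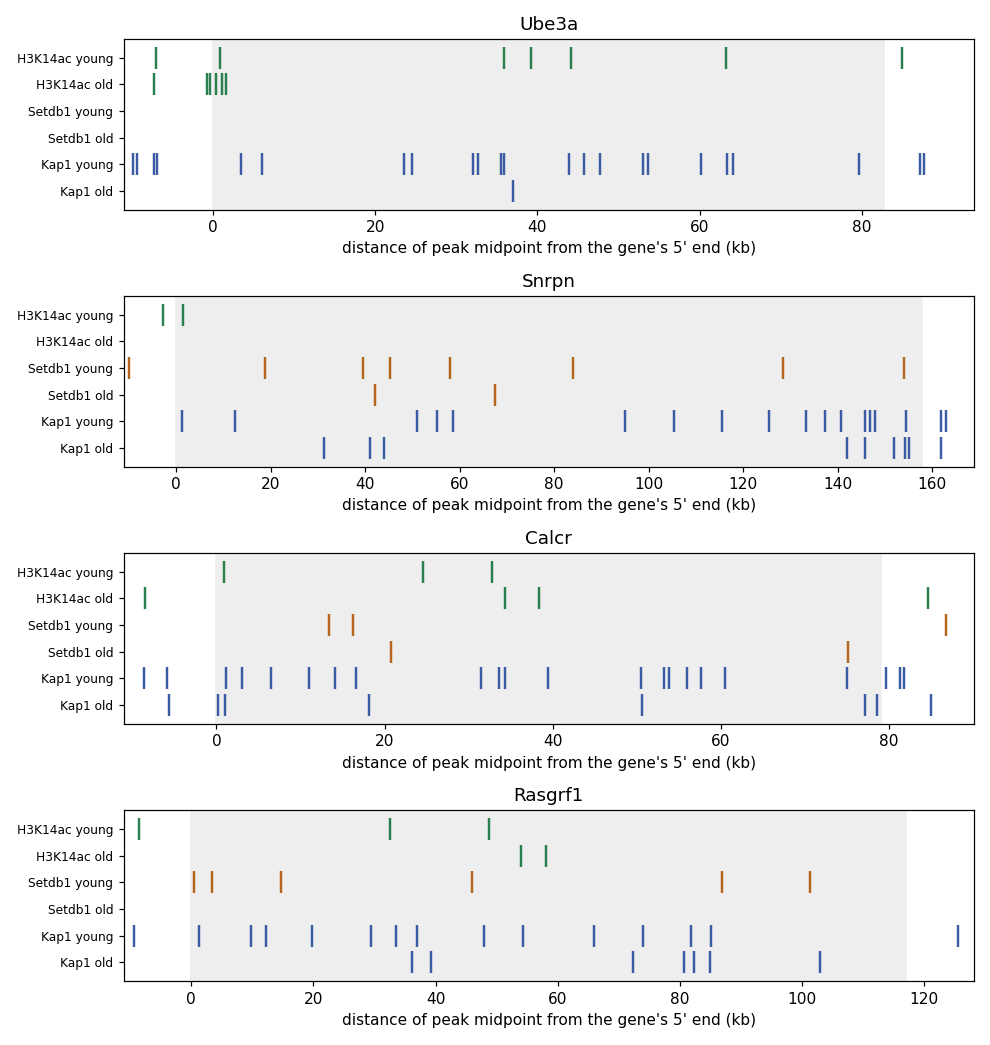
Midpoints of peaks along Ube3a, Snrpn, Calcr and Rasgrf1 in kb from the 5′ end of the gene (grey: gene body), with 1 row per list. Kap1 ticks are found along all 4 genes in young liver, with gaps in Snrpn and Rasgrf1, whereas Ube3a has 23 in young and 1 in old liver, and its old H3K14ac ticks sit around the start.

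Snrpn, a paternally expressed gene of a splicing protein whose start holds the control region of the Prader-Willi and Angelman syndromes, had 18 young and 9 old Kap1 peaks, 8 young and 2 old Setdb1 peaks and 2 young H3K14ac peaks. Near its 3′ end, young Kap1 (chr7:59985704-59986021), old Kap1 (chr7:59985853-59986002) and young Setdb1 (chr7:59985823-59986363) peaks overlapped over a coding exon. This was the only place in any imprinted window where Setdb1 and Kap1 peaks of the same age overlapped. That is 1 of 73 young Setdb1 peaks (1.37%, 0.242% to 7.36%), against 2.08% on all autosomes, and 0 of 13 in old liver (against 1.82%). The 150 bases common to the 3 lists, chr7:59985853-59986002, hold 131 coding bases and no hexamer match.
Snrpn: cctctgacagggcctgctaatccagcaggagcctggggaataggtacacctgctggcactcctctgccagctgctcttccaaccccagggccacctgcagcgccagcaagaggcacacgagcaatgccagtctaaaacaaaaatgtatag

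Ube3a encodes a ubiquitin ligase that is expressed from the maternal chromosome in neurons and from both in most other tissues. It had 23 Kap1 peaks in young and 1 in old liver, and no Setdb1 peak at either age. The young peaks ran from -9.9 kb to 87.7 kb from the 5′ end with a median spacing of 2.32 kb. Of these, 17 lay in the gene body and 3 touched an exon. The single old peak lay 37.0 kb into the gene and overlapped none of the young ones. On all autosomes only 7.63% of young Kap1 peaks overlapped an old one. The old Ube3a peak amounts to 9.73 per Mb of window, where the 500 kb on each side held 63 old Kap1 peaks per Mb. A pair of the young peaks had a further copy in the genome. The median GC content of the young Kap1 peaks was 38.7%, below the 46.9% of all autosomal young Kap1 peaks. H3K14ac peaks numbered 7 in young and 6 in old liver. The young ones ran from -7.07 kb to 85.0 kb, 1 of them within 1 kb of a start, and 3 intronic ones, centred 35762, 44124 and 63267 bp from a start, each overlapped a young Kap1 peak. The old ones ran from -7.31 kb to 1.54 kb, 4 of them within 1 kb of a start, among them the widest H3K14ac peak of the imprinted windows, chr7:59228778-59229425, with 648 bp, 78 CpG and a GC content of 70.2%.

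Calcr had 22 young and 8 old Kap1 peaks, of which 2 young peaks had an old partner, the start site above and an intron at chr6:3714115-3714264. On all autosomes 7.63% of young Kap1 peaks had an old partner. Rasgrf1 had 15 young and 7 old Kap1 peaks in its window and none overlapped between ages, a count near that share for so few peaks. Beyond these, Usp29, a ubiquitin protease gene next to Peg3, had 5 young and 2 old Kap1 peaks, Trappc9, which hosts Peg13, had 4 and 0, and Sgce, Commd1, Mkrn3 and Airn had 3 young peaks each and no old one. No other gene had more than 2 in a list. Kap1 peaks at both ages were seen in 7 genes (Usp29, Snrpn, Ube3a, Calcr, Grb10, Impact and Rasgrf1), in young liver only in 15 and in old liver only in 3 (Plagl1, Rtl1 and Blcap). These were 15.6%, 33.3% and 6.67% of the imprinted genes, against 13.7%, 23.9% and 7.04% of all genes. The whole Kcnq1 cluster of 6 genes and the H19/Igf2 pair held no Kap1 peak at either age, in 0.443 Mb and 0.0587 Mb of window, and neither did the windows of Mest, Gnas with Nespas, Inpp5f and Slc38a4. Of the 45 genes, 20 had no Kap1 peak at either age (44.4%), against 55.4% of all genes.

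Setdb1 peaks were most numerous in partly other genes. Kcnq1, a potassium channel gene, led with 12 young and 3 old peaks, followed by Usp29 (11 and 1), Snrpn (8 and 2), Trappc9 (8 and 0) and Rasgrf1 (6 and 0). Kcnq1 contains the start of Kcnq1ot1, the antisense RNA that silences the cluster on the paternal chromosome, and 5 of its young peaks were also in the window of Kcnq1ot1, all within the transcribed body and none nearer to its start than 11214 bp. Peg3, a paternally expressed zinc finger gene, had 5 young Setdb1 peaks and none of any other list. The window of the 3 genes of the Peg3 cluster held 15 young Setdb1 peaks, 47.5 per Mb against 20 per Mb of autosomes, and 1 old peak. Over all imprinted windows young Setdb1 peaks were as dense as on the autosomes (21.6 per Mb). Setdb1 was seen in young liver only in 20 genes, at both ages in 6 (Usp29, H19, Kcnq1, Snrpn, Calcr and Airn) and in old liver only in 3 (Igf2, Sgce and Inpp5f). These were 44.4%, 13.3% and 6.67% of the imprinted genes, against 36.8%, 14% and 6.14% of all genes. By parental expression, a young Setdb1 peak fell in the windows of 16 of 24 paternally and 10 of 19 maternally expressed genes, a young Kap1 peak in 12 and 10, and a young H3K14ac peak in 9 and 11. Of all genes, 50.8% had a young Setdb1, 37.6% a young Kap1 and 33.1% a young H3K14ac peak in the window. Where windows overlap, a peak can count in both classes, as 1 young Kap1 peak did for Igf2r and Airn. The differences between the classes were not tested. In young liver 14 genes had peaks of both factors in the window (31.1%, against 23.8% of all genes), and in old liver 3 (Usp29, Snrpn and Calcr, 6.67%, against 7.39%).

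**Figure D5:**
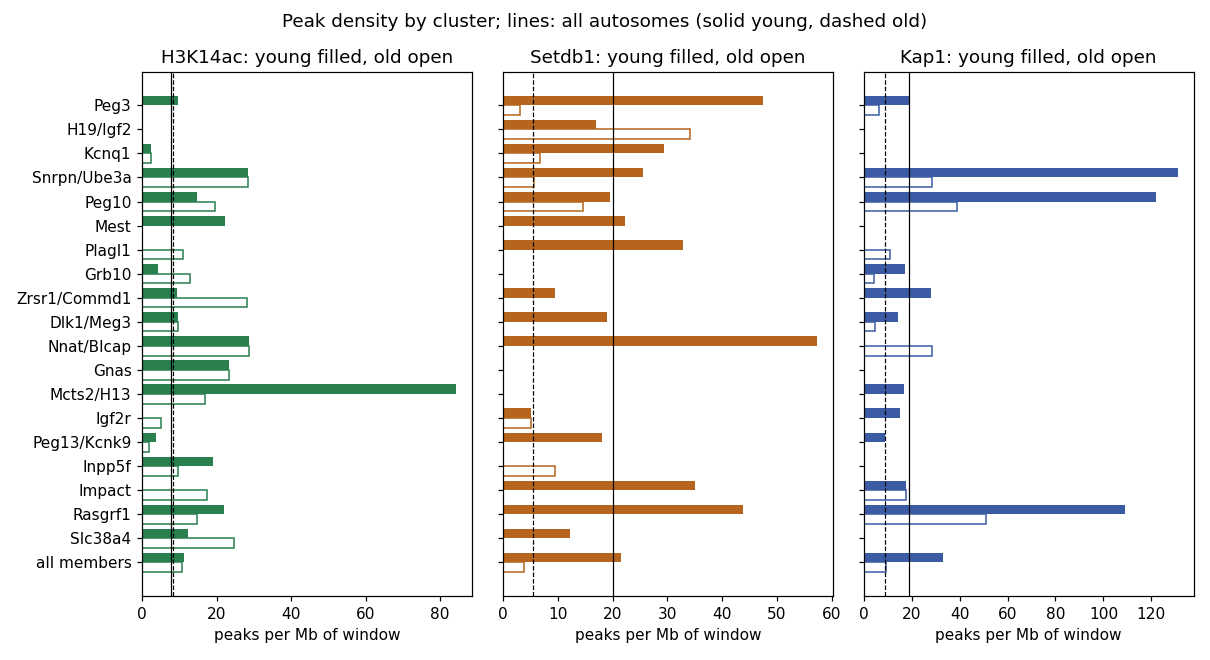
Peaks per Mb of window by imprinted cluster for H3K14ac, Setdb1 and Kap1 (filled bars young, open bars old; solid and dashed lines, all autosomes in young and old). Young Kap1 reaches 131 per Mb in the Snrpn/Ube3a cluster, 122 in Peg10 (with Calcr) and 109 in Rasgrf1, and is absent from Kcnq1 and H19/Igf2.

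The ratio of old to young peaks in the windows was 0.947 for H3K14ac (38 young, 36 old; 95% interval 0.603 to 1.49), against 1.07 on all autosomes. For Setdb1 it was 0.178 (73 and 13; 0.0995 to 0.319), against 0.278, and for Kap1 0.286 (112 and 32; 0.193 to 0.422), against 0.454. The autosomal Kap1 ratio lay above the interval. Without the Snrpn/Ube3a cluster the Kap1 ratio was 0.333 (66 and 22; 0.207 to 0.538), a wider interval that holds the autosomal ratio. Without Ube3a, Snrpn, Calcr and Rasgrf1 it was 0.206, on only 34 young and 7 old peaks. No interval was computed for this value, so its distance from the autosomal ratio cannot be judged. With each of the other clusters left out in turn the autosomal ratio stayed above the interval, which again covers counting error only. Few peaks kept their place. Of the young peaks, 5 of 38 H3K14ac (13.2%, against 20.8% on all autosomes), 0 of 73 Setdb1 (against 0.869%) and 6 of 112 Kap1 (5.36%, against 7.63%) overlapped an old peak of the same mark. For H3K14ac these lay at Cd81, H13, Slc38a4 and, with 2, Ube3a. For Kap1 they lay at Calcr (2), Snrpn (3) and Impact, and where at least 50% of both peaks had to be shared, only the 2 of Calcr were left.

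Between marks, 7 of 112 young Kap1 peaks overlapped a young H3K14ac peak (6.25%, 3.06% to 12.3%, against 4.33% on all autosomes), in Ube3a, Snrpn and Calcr, and 0 of 32 old ones (upper limit 10.7%, against 5.16%). No Setdb1 peak in the windows overlapped H3K14ac at either age, against 0.986% in young and 1.16% in old liver on all autosomes. With 73 and 13 Setdb1 peaks, these counts of 0 allow shares of up to 5.0% and 22.8%.

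Genes of proteins that bind, set, keep or remove the marks of imprinted regions were compared as a list of 20. H3K14ac lay at a start site of 7 of them in young and of 11 in old liver. The 7 were Zfp57, Trim28, Ctcf, Cbx3, Cbx5, Tet3 and Arid4a. These shares were 35% and 55.0%, against 15.3% and 22.0% of all genes, which include noncoding ones. Of coding genes only, 19% had H3K14ac at a start site in young and 27.6% in old liver. No interval was computed for the 20 genes, and the difference was not tested. Kap1 lay at a start of 0 of the 20 at either age, against 4.99% and 2.09% of all genes, shares at which a count of 0 or 1 is near the background. Trim28, the gene of Kap1, had 9 young and 10 old H3K14ac peaks in its window. Setdb1 lay at the starts of Dnmt1, the maintenance DNA methyltransferase, and Dnmt3b in young liver (2 of 20, against 4.11% of all genes), and at that of Zfp445 in old liver (1 of 20, against 1.09%), counts near the background. Of 32 further genes in or beside the imprinted clusters, 7 had a young and 9 an old H3K14ac peak in their windows (21.9% and 28.1%, against 33.1% and 40.6% of all genes). Setdb1 peaks fell in 19 young windows (59.4%, against 50.8%) and 13 old ones (40.6%, against 20.2%). For Kap1 these were 17 (53.1%, against 37.6%) and 7 (21.9%, against 20.7%).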

How the data were processed

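Chromatin immunoprecipitation was sequenced from each liver separately. Per the labels and the study's methods, the authors aligned reads with BWA to mm10, kept unique reads, merged the reads of the livers of an age, and called peaks on them against input with PeakSeq. The deposited lists give positions only, without a signal, score or p-value, so the unit is a genomic interval and no coverage is known. The 4 sequential ChIP samples of the series were not analysed here.

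Peaks were counted in gene body plus 10 kb windows and within 1 kb of the start of any basic transcript (GENCODE M21) with Python 3.11.15 and numpy 2.4.6, and the counts were checked with bedtools 2.31.1. Wilson intervals came from statsmodels 0.14.6, figures from matplotlib 3.10.9, and further copies from blastn 2.17.0. The hexamer was searched on both strands. Scripts were tested on simulated data. The members and lists came from textbook knowledge but were chosen with earlier results of these data known. Named were genes with a peak at a start site, with control regions, with peaks in 3 or more lists or of both factors, and the 3 with most peaks per list. The sequence of 1 factor peak at a control region, with its matches and CpG, is not reported here.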

Additional observations from a re-analysis of the deposited data

How the results depend on the processing

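Of 99 values recomputed under other settings, 64 planned and 15 added after seeing the data stayed within 1.5 times the reported count or, for the ratios of old to young, within the reported interval, and the others were as follows. With 50 kb flanks the windows held 63 young and 61 old H3K14ac, 25 old Setdb1, and 190 young and 64 old Kap1 peaks, and 40 genes had a young Setdb1, 23 an old Setdb1 and 20 an old Kap1 peak. The share of all genes with such a peak rose as well, to 84.8%, 42.9% and 38.9%. Within 5 kb of a start site, 11 genes had a young and 2 an old Setdb1 peak and 12 a young Kap1 peak, and control regions with a peak numbered 6 for young H3K14ac, 4 for young and 1 for old Setdb1, and 4 for young Kap1. At the 5′ end alone, 2 genes had a young Kap1 peak. No share of all genes was computed within 5 kb or at the 5′ end alone, so these counts cannot be set against a background. With at least 50% of both peaks shared, 2 young Kap1 peaks had an old partner. Without Ube3a, Snrpn, Calcr and Rasgrf1, added after seeing the data, the windows held 23 young H3K14ac, 34 young Kap1 and 7 old Kap1 peaks. No paired analysis was possible because the livers were merged into 1 list per mark and age and no test was made. A stricter peak threshold was not run, since the lists hold no scores, and no replicate could be left out. Differences in depth or antibody yield between the lists cannot be told apart from age.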
